A study of Mus musculus with 2 samples.

Results

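Chemokines are small secreted proteins that guide white blood cells, and 9 mouse genes of this kind were followed through the cells of optic nerve gliomas, chosen by name as *Ccl2*, *Ccl7*, *Ccl8*, *Ccl12*, *Ccl24*, *Cxcl1* and *Cxcl2*, which encode ligands, and *Ccr2* and *Cxcr2*, which encode receptors. They are 9 of the 32285 genes counted in the files, and each of them was found there by its symbol. *Ccl2*, *Ccl7*, *Ccl8* and *Ccl12* encode ligands that draw monocytes from the blood, with Ccr2 as a main receptor. *Ccr2* marks the classical monocyte and is carried by dendritic and lymphoid cells too, whereas resident microglia are known for the fractalkine receptor gene *Cx3cr1*. *Cxcl1* and *Cxcl2* encode ligands of Cxcr2, the receptor through which neutrophils are drawn, and *Ccl24* encodes an eotaxin that acts through Ccr3, so these genes attract more than monocytes alone. Brain macrophages comprise the microglia of the tissue itself and the macrophages of its borders, which line vessels and meninges.

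Optic nerves of Nf1-OPG mice were studied by droplet single-cell RNA sequencing, which tags each transcript with the barcode of a cell and with a unique molecular identifier (UMI). These mice are Nf1 flox/mut; GFAP-Cre on a C57BL/6 background and form low-grade gliomas of the optic nerve. The remaining *Nf1* allele is removed where the *GFAP* promoter drives Cre, so that macrophages and other cells outside that lineage keep a working copy beside the mutant one. Both libraries, named C-ON and FMC_new, share this genotype, an age of 12 weeks and a pool of 10 mice as the labels describe them, and no treatment is given for either. C-ON is also labelled control, a word whose meaning is not given in the sources used here. No nerve without tumor was analysed here, so the comparisons lie between kinds of cells, each made within both libraries, and no p-value is given. The p-values that cells could give would count cells of 1 library as replicates.

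C-ON held 85101211 UMIs in 10845 barcodes and FMC_new 129113325 in 21341. After filtering, 8834 cells with a median of 6810.5 UMIs were kept in C-ON and 16818 with a median of 4676 in FMC_new. There were 296 barcode strings present in both libraries. The makeup differed, with 61.2% oligodendrocyte-like cells in C-ON against 14.7% in FMC_new. Pituitary endocrine-like cells numbered 19 in C-ON and 585 in FMC_new. Clusters 17 (602 cells) and 18 (519 cells), both left unnamed, were found in FMC_new alone, with the pituitary marker *Pomc* among their leading genes. Of 48 clusters, 34 were given a name from marker genes, in 17 classes, and 14 clusters with 16.3% of the cells stayed unnamed. The border macrophage-like class (122 cells in C-ON, 138 in FMC_new) was made of clusters 4.3, 4.6 and 4.8, with 8, 7 and 6 of 8 markers, and cluster 4.8 (1 and 26 cells) also met 3 T cell markers. Microglia-like cells (230 and 1765) met 8 of 8 markers in cluster 5 and 6 of 8 in cluster 13. A monocyte-like cluster was found, with 6 of 8 markers, but held 8 cells in C-ON and 61 in FMC_new. No cluster qualified as stromal-like, endothelial-like or mural-like. Unnamed clusters are given by number, and 3 of them, 4.0 (led by *Clec4b1* and *Pf4*), 4.1 (led by *Ccl8* and *Ly6i*) and 4.2 (led by *Ms4a7* and, among others, *Ccl4*), held markers of border macrophages and of microglia at once. Names, clusters and the lists behind them were settled with earlier results of these genes in view, and another setting of the computer's linear algebra had given other clusters, without a monocyte-like one.

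A level is given as CPM, the UMIs of the gene for each 1000000 UMIs of the class, with an exact 95% Poisson interval that covers counting error only. A gene was called between classes where its level differed at least 4-fold in the same direction in both libraries, with intervals apart in each. It was tested where the classes together held at least 10 of its UMIs in each library, and the share of all tested genes called by the same rule is the background against which the members are read.

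The genes lie in 2 groups and 3 single places of GRCm38. *Ccl2* (ENSMUSG00000035385) spans chr11:82035571-82037453, *Ccl7* chr11:82045712-82047525, *Ccl12* chr11:82101845-82103400 and *Ccl8* chr11:82115185-82116799, all on the plus strand. *Cxcl1* spans chr5:90891241-90893115 and its neighbour *Cxcl2* chr5:90903871-90905938, also on the plus strand. *Ccl24* (chr5:135569937-135573049, minus strand), *Ccr2* (chr9:124101950-124113557) and *Cxcr2* (chr1:74153989-74161246) stand alone. All 9 are annotated as protein-coding. How the counting treated reads shared by these related genes is not given in the sources used here. Promoters of 6 of the 9 were matched in RefSeq tables for GRCm38.p6. The 250 bases before the RefSeq start of *Cxcl1* and *Cxcl2* are shown because these neighbours followed one another in the same macrophages, and capitals mark an NF-kB motif on either strand, spelled GGG, then 2 bases of any kind, then TTTCC.
Cxcl1, chr5:90890995-90891244, plus strand: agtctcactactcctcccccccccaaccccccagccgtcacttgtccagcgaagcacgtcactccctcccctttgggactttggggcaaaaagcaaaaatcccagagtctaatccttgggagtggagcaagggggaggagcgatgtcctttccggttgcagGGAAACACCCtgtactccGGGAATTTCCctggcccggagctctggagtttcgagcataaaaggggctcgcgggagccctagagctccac
Cxcl2, chr5:90903649-90903898, plus strand: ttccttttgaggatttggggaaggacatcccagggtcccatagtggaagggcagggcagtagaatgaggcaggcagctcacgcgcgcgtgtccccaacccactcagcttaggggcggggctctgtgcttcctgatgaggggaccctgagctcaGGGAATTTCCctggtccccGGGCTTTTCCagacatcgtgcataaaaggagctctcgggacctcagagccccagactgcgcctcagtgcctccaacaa
The matches begin at -89 and -71 in *Cxcl1* and at -97 and -78 in *Cxcl2*, counted from the RefSeq start, which in both genes lies inside the span given above, so that the windows overlap these spans. Of 32851 promoters of this length, 464 (1.41%) hold these letters. The promoters of *Ccl12* and *Ccl8* are shown because their genes lie side by side and differed in the macrophages that held them, and capitals mark the letters TATAAA.
Ccl12, chr11:82101595-82101844, plus strand: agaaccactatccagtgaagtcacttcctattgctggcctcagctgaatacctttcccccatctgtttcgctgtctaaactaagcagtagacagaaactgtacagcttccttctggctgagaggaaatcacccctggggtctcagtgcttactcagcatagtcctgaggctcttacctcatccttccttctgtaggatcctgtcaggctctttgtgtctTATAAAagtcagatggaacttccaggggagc
Ccl8, chr11:82114935-82115184, plus strand: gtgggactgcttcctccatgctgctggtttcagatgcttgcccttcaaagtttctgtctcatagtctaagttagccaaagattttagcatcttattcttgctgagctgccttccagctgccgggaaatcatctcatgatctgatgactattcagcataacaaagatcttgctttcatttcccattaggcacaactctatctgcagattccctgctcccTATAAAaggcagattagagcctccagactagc
The match begins at -31 in *Ccl12* and at -32 in *Ccl8*, and 4063 promoters (12.4%) hold these letters on either strand. The letters of the NF-kB motif were not found in the windows of *Ccl12*, *Ccl8*, *Ccr2* and *Cxcr2*. A match of letters describes the sequence and shows no binding.

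**Figure D1:**
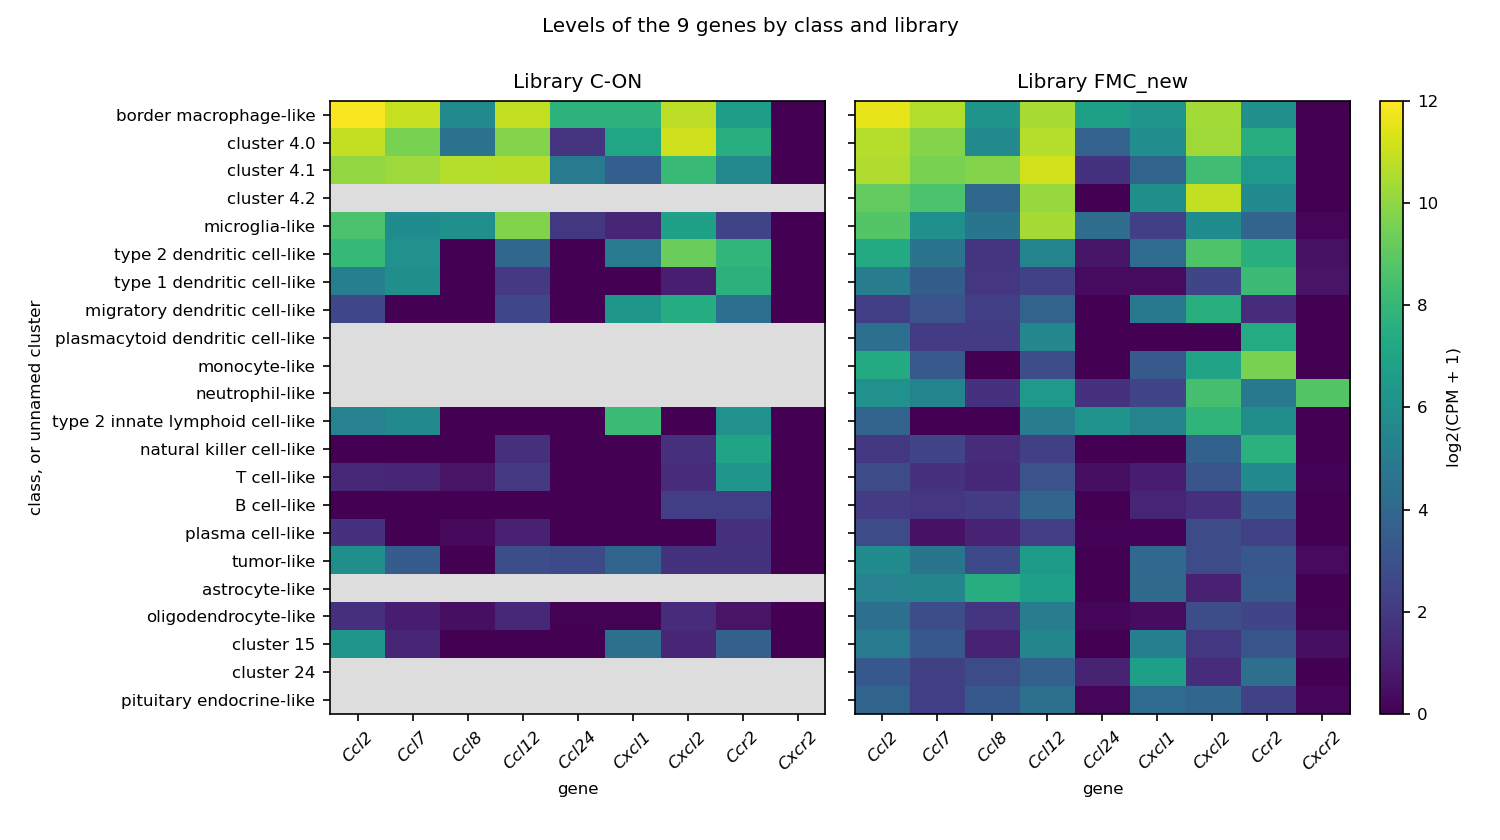
Levels of the 9 genes as log2(CPM + 1), by class or unnamed cluster (rows) and gene (columns), in C-ON on the left and FMC_new on the right, with grey where a library had fewer than 20 cells. *Ccl2*, *Ccl7* and *Ccl12* are bright in the border macrophage-like class and in clusters 4.0, 4.1 and 4.2, *Ccl8* in cluster 4.1, *Ccr2* in monocyte-like and dendritic cell-like cells, and *Cxcr2* in neutrophil-like cells.

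Border macrophage-like cells held the highest levels of *Ccl2*, *Ccl7*, *Ccl12*, *Ccl24* and *Cxcl2* in both libraries among the named classes with at least 20 cells, although for *Ccl12* the interval met that of microglia-like cells in FMC_new. Against microglia-like cells, 6 of the 8 members tested were called higher (*Ccl2*, *Ccl7*, *Ccl24*, *Ccr2*, *Cxcl2* and *Cxcl1*) and none lower, beside 1.71% of 10306 genes called higher and 0.999% called lower. *Ccl8* and *Ccl12* were tested and not called, and *Cxcr2* had too few UMIs. The call of *Ccr2* was not made when cells were classed in some other ways and when cluster 4.8 was left out, which gave 5 members. The list of dissociation and stress genes stood at 23220 and 20338 CPM in border macrophage-like cells of C-ON and FMC_new and at 21860 and 22899 CPM in microglia-like cells. Within the border macrophage-like class *Fos* was the highest gene of the list and *Hspa1b* the lowest in both libraries. In oligodendrocyte-like cells the list reached 502 and 1384 CPM. The part of dissociation in the chemokine levels was not tested.

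*Ccl2* encodes the ligand for which monocyte attraction is best known. Its level in border macrophage-like cells was 3726 CPM (3569 to 3889) in C-ON and 3006 (2892 to 3124) in FMC_new. Microglia-like cells held 372 (340.2 to 405) and 448 (434 to 462) CPM. The libraries lay close to one another and the classes apart, with folds of 10.0 in C-ON and 6.71 in FMC_new. *Ccl2* was found in 74.6% of 122 and 80.4% of 138 border macrophage-like cells, and in 30% of 230 and 36.0% of 1765 microglia-like cells. With every cell thinned to 1000 UMIs these shares became 58.2% and 60.1% against 12.1% and 18.5%. In oligodendrocyte-like cells, which should lack the gene, the unthinned share was 1.05% in C-ON and 3.69% in FMC_new at medians of 8056.5 and 7505 UMIs, deeper than the 3862.5 and 5628.5 of border macrophage-like cells. Within the class the UMIs were unevenly spread, since 13 of 122 cells in C-ON and 17 of 138 in FMC_new held at least 50% of them. One of these cells held 167 *Ccl2* UMIs, the most of any cell in C-ON.

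*Ccl7*, whose product also binds Ccr2, differed more between these classes. Border macrophage-like cells held 2046 (1930 to 2167) CPM in C-ON and 1577 (1495 to 1663) in FMC_new, and microglia-like cells 55.9 (44.1 to 69.9) and 64.2 (59.0 to 69.8). The folds were 36.6 and 24.5. *Ccl7* was also found mostly in the cells that held *Ccl2*. Among border macrophage-like cells with a *Ccl2* UMI, 57.1% in C-ON and 53.2% in FMC_new held *Ccl7*, against 9.68% and 7.41% of those without. Cells with *Ccl2* were deeper, with medians of 4253 against 3594 UMIs in C-ON and 5816 against 4156 in FMC_new, and the part of depth in this was not tested.

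*Ccl12*, the mouse gene closest to *Ccl2* in its known action on Ccr2, was shared by both macrophage classes. Its level was 1899 (1788 to 2016) and 1381 (1304 to 1461) CPM in border macrophage-like and 849 (801 to 899) and 1327 (1303 to 1352) CPM in microglia-like cells. The classes were 2.24-fold apart in C-ON, and in FMC_new, at 1.04-fold, their intervals overlapped. The shares of cells lay close together, at 56.6% and 58.7% against 54.3% and 53.1%. In microglia-like cells of FMC_new the gene was found in 73.9% of cells with *Ccl2* and in 41.5% of those without, at medians of 6249.5 and 2566 UMIs. The unnamed clusters 4.0 and 4.1 of FMC_new lay above both classes, with 1425 of 875344 and 2897 of 1241778 UMIs. Border macrophage-like and microglia-like cells there held 1196 of 866177 and 11447 of 8623351. In C-ON these clusters lay below border macrophage-like cells, with 345 of 389745 and 447 of 268481 UMIs against 1078 of 567565.

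*Ccl8* stood apart from its neighbours on chromosome 11. The highest level was in the unnamed macrophage cluster 4.1, with 1620 (1472 to 1780) CPM in the 42 cells of C-ON and 869 (818 to 922) in the 210 of FMC_new. Cluster 4.1 was led by *Ccl8* itself beside *Ly6i*, *Cxcl9*, *C3* and *Cfb*, although the clusters were made without the 9 genes. The border macrophage-like class held 51.1 (34.2 to 73.4) and 73.9 (56.9 to 94.3) CPM, and microglia-like cells 64.6 (51.9 to 79.5) and 24.5 (21.3 to 28). The intervals of these classes overlapped in C-ON and were apart in FMC_new. In C-ON, 1 microglia-like cell held 47 of the 89 UMIs of its class. Most of the microglia-like level in C-ON came from cluster 13, a cluster of 51 shallow cells with 454 CPM against 5.85 in cluster 5, and in FMC_new these clusters held 79.2 and 13.2 CPM. Without cluster 13, *Ccl8* was called higher in border macrophage-like cells. Few cells carried the gene, with 4 cells holding at least 50% of all its UMIs in C-ON and 16 in FMC_new. An astrocyte-like level of 178 (151 to 209) CPM in FMC_new rested on 4 of 212 cells.

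*Ccl24*, the eotaxin gene, was the ligand gene with the fewest UMIs in either library. Border macrophage-like cells held 218 (182 to 260.5) and 113 (91.8 to 138) CPM, and microglia-like cells 2.90 (0.791 to 7.43) in C-ON, from 4 UMIs, and 18.8 (16.0 to 21.9) in FMC_new. The classes were apart in both libraries. In FMC_new the type 2 innate lymphoid cell-like class reached 70 (43.3 to 107) CPM, an interval that overlaps that of border macrophage-like cells, while the 26 cells of this class in C-ON held none, at a floor of 39.4 CPM for 3 counts.

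*Cxcl2*, a gene for a neutrophil-attracting ligand, was held by border macrophage-like cells at 1799 (1690.2 to 1913) CPM in C-ON and 1275 (1200.5 to 1352) in FMC_new. Microglia-like cells held 115 (97.5 to 134) and 56.7 (51.8 to 62.0) CPM, which gave folds of 15.7 and 22.5. Cluster 4.0 held 2209 (2064 to 2362) and 1251 (1178 to 1327) CPM, and cluster 4.2 of FMC_new 1886 (1792 to 1984). Cluster 4.0 in C-ON and cluster 4.2 in FMC_new thus lay above border macrophage-like cells, with intervals apart. These clusters also held more RNA of the stress list than the named macrophage classes, 28329 and 28750 CPM in cluster 4.0 and 34362 in cluster 4.2, and the part of stress was not tested. Type 2 dendritic cell-like cells held 614 (577 to 652) and 420 (404 to 435) CPM of *Cxcl2*, the highest values among the other named classes in either library.

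*Cxcl1*, its neighbour, was lower in both macrophage classes and was found in fewer cells, 266 against 760 for *Cxcl2* in FMC_new. The level was 218 (182 to 260.5) and 75.0 (57.9 to 95.6) CPM in border macrophage-like cells against 1.45 (2 UMIs) and 3.83 CPM in microglia-like cells. Where a border macrophage-like cell held *Cxcl2*, it held *Cxcl1* in 42.6% of cells in C-ON and 25% in FMC_new, against 4.92% and 1.22% of the cells without *Cxcl2*. Depth differed here too, with medians of 4413 against 3537 UMIs in C-ON and 6083 against 4974 in FMC_new. A level of 289 CPM in type 2 innate lymphoid cell-like cells of C-ON rested on 1 cell that held all 22 UMIs.

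**Figure D2:**
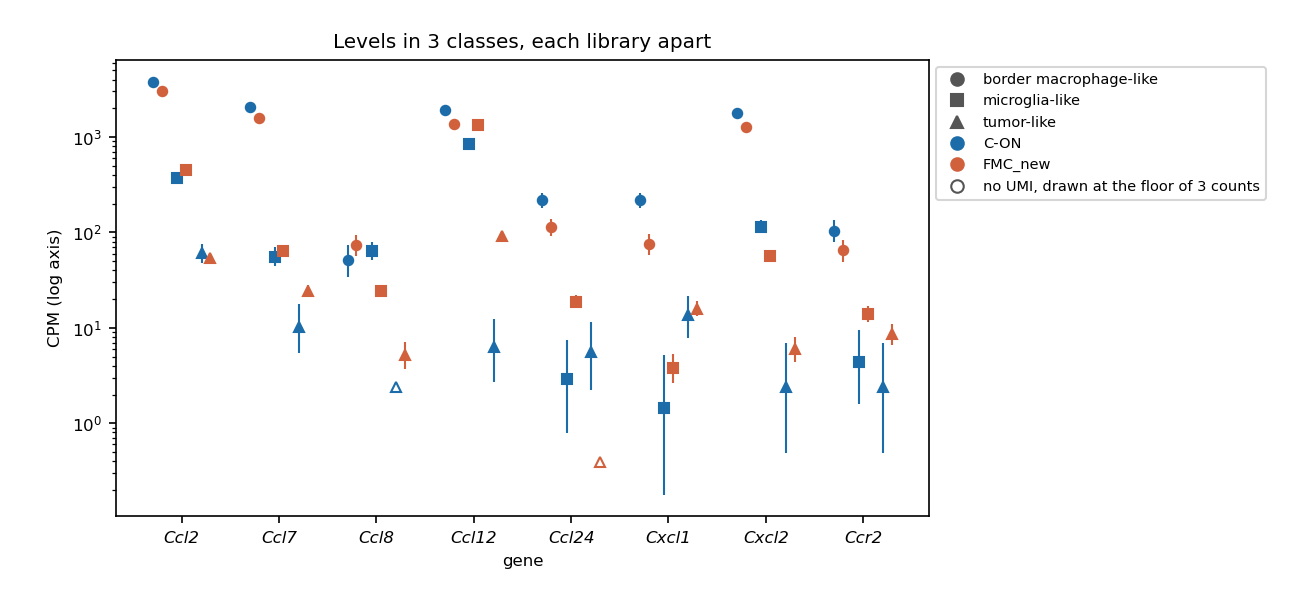
Levels in CPM on a log axis of 8 genes (Cxcr2 left out) in border macrophage-like (circles), microglia-like (squares) and tumor-like cells (triangles), with C-ON in blue, FMC_new in orange, exact 95% Poisson intervals as bars, and open symbols at the floor of 3 counts where no UMI was found. Circles lie above squares in both libraries except for *Ccl8* in C-ON and, nearly level, *Ccl12* in FMC_new, and above triangles throughout.

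The macrophage clusters differed among themselves. *Ccl2* was highest in cluster 4.3 (4337 and 4098 CPM), the border macrophage-like cluster led by *Lyve1* and *Mrc1*, and lower in cluster 4.6 (1560 and 2491 CPM), led by *Saa3*, *Fcna* and, among others, *Timd4*, and in cluster 4.8 of FMC_new (1854 CPM). *Ccl24* ran the same way, at 282 against 40.4 CPM in clusters 4.3 and 4.6 of C-ON and 174 against 90.8 CPM in FMC_new. *Ccr2* did not, since it stood at 179 (126 to 248) CPM in cluster 4.8 of FMC_new, above the 30.8 (15.4 to 55.1) of cluster 4.3 and the 29.2 (13.3 to 55.4) of cluster 4.6. Among the unnamed clusters, 4.0 held *Ccl2* at 1899 and 1634 CPM, 4.1 at 1050 and 1532 CPM, and 4.2 at 551 CPM in FMC_new. *Cxcl2* took another order, since cluster 4.1 stayed at 272 and 318 CPM. Cluster 4.7, which met oligodendrocyte and border macrophage markers at once, held *Ccl2* at 839 CPM in its 32 cells of C-ON.

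**Figure D3:**
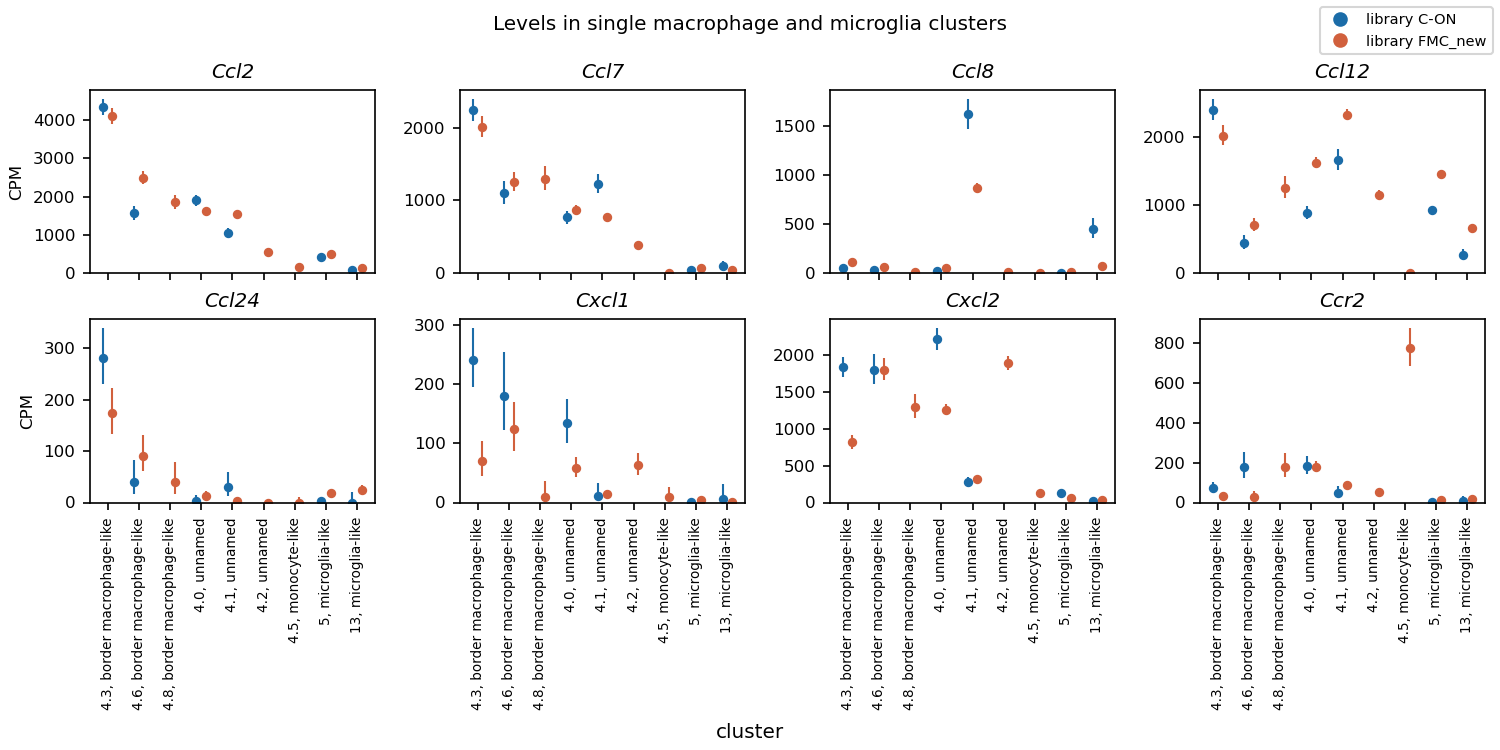
Levels in CPM (vertical axes, scaled for each gene) of 8 genes in single macrophage, monocyte and microglia clusters (horizontal axis), with C-ON in blue, FMC_new in orange and exact 95% Poisson intervals, and clusters under 20 cells in a library left out. *Ccl2* is highest in cluster 4.3, *Ccl8* in cluster 4.1 and *Ccr2* in cluster 4.5, while *Cxcl2* is high in clusters 4.0, 4.2 and 4.6.

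Dendritic cell-like cells carried part of the ligand RNA as well. Type 2 dendritic cell-like cells held *Ccl2* at 265 (241 to 290.2) CPM in C-ON and 163 (153 to 172) in FMC_new, below microglia-like cells in both libraries. The class was uneven, with 943 and 952 CPM in its cluster 4.4, which clustered beside the macrophages, against 152 and 93.0 CPM in its larger cluster 9. *Cxcl2* was unequal in the same way, at 1504 and 1629 CPM in cluster 4.4 against 466 and 313 CPM in cluster 9.

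Taken over all kept cells, the border macrophage-like class held 44.9% of the *Ccl2* UMIs of C-ON with 1.38% of its cells, and 19.7% of those of FMC_new with 0.821% of its cells. Microglia-like cells held 10.9% and 29.2%, and clusters 4.0, 4.1 and 4.2 together 22.5% and 28.5%. *Ccl12* came mainly from microglia-like cells in FMC_new (54.5% of its UMIs), and from microglia-like (35%) and border macrophage-like cells (32.3%) in C-ON. For *Ccl24* the border macrophage-like share was 76.5% in C-ON and 29.8% in FMC_new, where microglia-like cells held 49.2%. *Cxcl1* was the ligand gene with the largest share of its UMIs in other classes and clusters in FMC_new, at 51.3%. Of these 524 UMIs, cluster 24 held 173, pituitary endocrine-like cells 98, cluster 15 held 87 and cluster 17, with its pituitary marker, 84. Shares of a library's UMIs move with its makeup, so these values describe the libraries and not the classes.

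**Figure D4:**
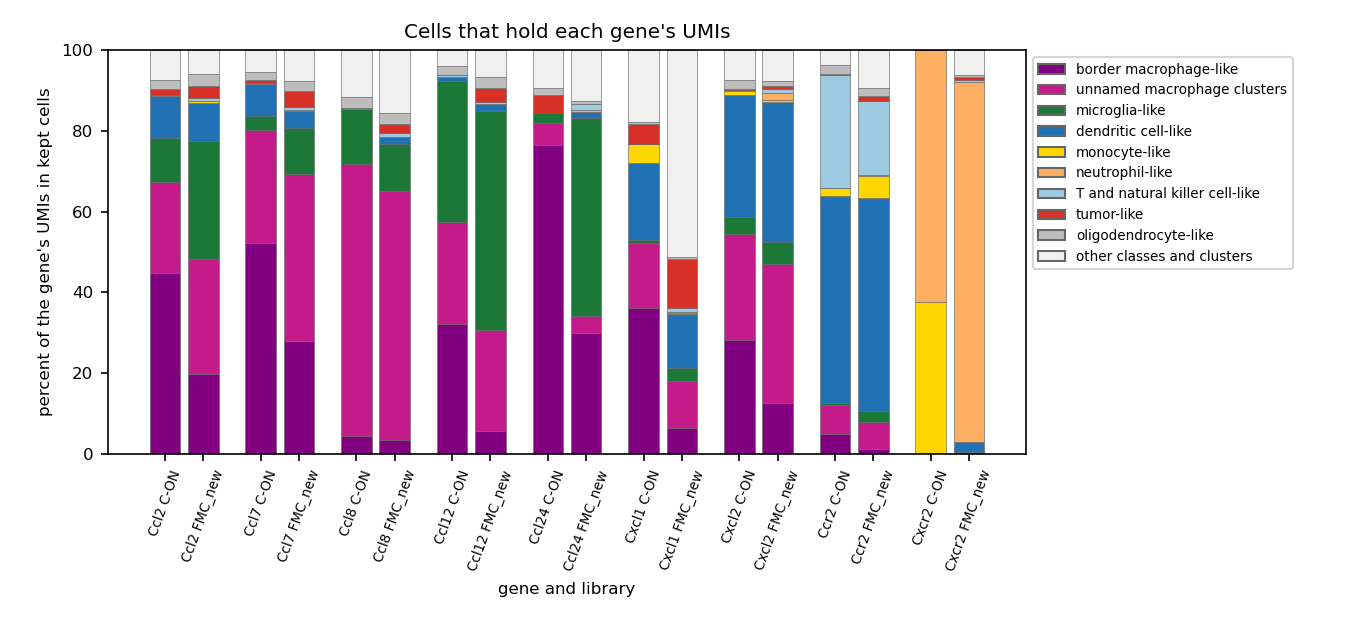
Share of each gene's UMIs in kept cells (vertical axis, percent) held by each kind of cell (colours), for each gene and library (horizontal axis). Macrophage kinds hold most of *Ccl2*, *Ccl7*, *Ccl8*, *Ccl12* and *Ccl24*, dendritic cell-like cells about as much of *Ccr2* as all others together, and neutrophil-like cells most of *Cxcr2*, whose bar in C-ON rests on 8 UMIs.

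Glial and stromal cells were compared next, as glioma cells are a possible source of ligands. Tumor-like cells (216 in C-ON, 1410 in FMC_new), named from progenitor genes such as *Pdgfra* and *Cspg5*, were set against oligodendrocyte-like cells. Of 7 members tested, 1 (*Cxcl1*) was called higher and none lower, beside 13.8% of 15298 genes called higher and 2.60% called lower. *Cxcl1* stood at 13.5 CPM from 17 UMIs in C-ON and 15.9 CPM from 123 UMIs in FMC_new, against 0.0430 CPM from 2 UMIs and 0.315 CPM from 6 UMIs in oligodendrocyte-like cells. It was found in 2.31% and 4.54% of tumor-like cells. The tumor-like cluster 10 alone held it at 16.9 and 20.7 CPM.

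*Ccl2* in tumor-like cells was 61.0 (48.2 to 76.3) CPM in C-ON and 53.5 (48.4 to 58.9) in FMC_new, against 2.11 and 19.9 CPM in oligodendrocyte-like cells, 29.0-fold and 2.69-fold higher, and it was not called. It rested on few cells, since 1 of 216 cells held 40 of the 77 UMIs in C-ON and 5 of 1410 held at least 50% in FMC_new. Cluster 10, the larger tumor-like cluster, held 18.0 and 8.96 CPM, while cluster 16, in which cells of FMC_new had a median of 2240 UMIs and an immunoglobulin gene was among the leading genes, held 189 and 161. The macrophage gene *Cx3cr1* moved with it, at 1.06 and 9.87 CPM in cluster 10 and 72.5 and 143 CPM in cluster 16. *Ccl12* likewise was 4.21 CPM in cluster 10 and 306 CPM in cluster 16 of FMC_new. Among oligodendrocyte-like cells, cluster 28 held *Ccl2* at 218 and 363 CPM and *Cx3cr1* at 97.4 and 290.1 CPM. The part of macrophage RNA in the *Ccl2* of these clusters was not tested. Without cluster 28, *Ccl2*, *Ccl7*, *Ccl12* and *Cxcl1* were called higher in tumor-like cells, beside 2382 of 15202 genes. Without cluster 16 instead, *Cxcl1* was the only member called higher, beside 2024 of 15077 genes.

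Border macrophage-like cells exceeded tumor-like cells in all 8 members tested, beside 5.89% of 11949 genes called higher and 13.4% called lower. For *Ccl2* the folds were 61.1 in C-ON and 56.2 in FMC_new. *Cxcl1* and *Ccr2* were the closest to the limit in FMC_new, at 4.71-fold and 7.57-fold, and the first lost its call without cluster 16, the second without cluster 4.8. *Ccl8* had no UMI in tumor-like cells of C-ON, which puts its level at least 21.5-fold higher in border macrophage-like cells against a floor of 3 counts over the class, and it was 14.3-fold higher in FMC_new. *Ccl24* had none in tumor-like cells of FMC_new, where it was at least 291-fold higher in border macrophage-like cells, and 7 UMIs in those of C-ON, where the fold was 39.4.

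Cluster 15 (105 and 503 cells) held stromal genes such as *Mgp*, *Ogn* and *Dcn* among its leading genes, but met only 4 of 8 stromal markers beside 2 of microglia and was left unnamed. Against oligodendrocyte-like cells, 1 of 7 members tested (*Cxcl1*) was called higher, beside 10.8% of 14769 genes called higher and 5.19% called lower. *Cxcl1* reached 20.8 (11.3 to 34.8) and 35.3 (28.3 to 43.6) CPM. The *Ccl2* level of 75.6 CPM in C-ON came to 48 of 51 UMIs from 1 cell, and in FMC_new it was 31.3 (24.7 to 39.1) CPM. When stromal-like cells were instead picked cell by cell from their markers (51 and 107 cells), *Cxcl1* was again the 1 member called, at 28.8 (13.8 to 53.1) and 71.2 (52.8 to 93.8) CPM. In that comparison 8 members were tested, and 1364 of 15428 genes were called higher. *Cxcl1* was also present in cluster 24 of FMC_new, led by *Mia* and *Cyp2f2*, at 109 (92.9 to 126) CPM and UMIs in 34 of 289 cells.

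*Ccr2* was highest in other cells than its ligand genes. Monocyte-like cells of FMC_new held 775 (683 to 876) CPM, the highest level of any class, and 80.3% of the 61 cells carried a UMI. They held *Ccl2* at 160 (120 to 209) CPM, below microglia-like cells, and *Cxcl2* at 127 (91.3 to 171), and *Ccl12* rested on 2 UMIs. In C-ON the 8 monocyte-like cells were too few for a value, so the class enters no comparison over both libraries. Within FMC_new alone, of 8 members tested, *Ccr2* was called higher and *Ccl7* and *Ccl12* lower than in microglia-like cells. Of 13199 genes, 389 were called higher and 380 lower. Monocyte-like cells picked cell by cell from their markers numbered 62 in FMC_new and held *Ccr2* at 541 (471 to 619) and *Ccl2* at 98.6 (70.1 to 135) CPM.

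Dendritic and lymphoid cells followed. The *Ccr2* level was 210.4 (183 to 241) and 294 (277 to 312) CPM in type 1 dendritic cell-like cells and 235 (212 to 259) and 194 (184 to 205) CPM in type 2 dendritic cell-like cells, so the order of these classes differed between libraries, with overlapping intervals in C-ON. Natural killer cell-like cells held 127 (97.0 to 164) and 200.3 (174 to 229) CPM, plasmacytoid dendritic cell-like cells of FMC_new 167 (124 to 219) and T cell-like cells 75.8 (67.3 to 85.2) and 55.0 (50.8 to 59.4). Among macrophages, cluster 4.0 held 185 and 179 CPM and cluster 4.1 held 48.4 (25.8 to 82.8) and 90.2 (74.3 to 108). Border macrophage-like cells held 104 (79.1 to 134) CPM in C-ON and 64.7 (48.8 to 84.0) in FMC_new, and microglia-like cells 4.36 and 14.0, folds of 23.9 and 4.61. *Ccr2* was found in 58.7% and 51.2% of type 2 dendritic cell-like cells and in 2.17% and 4.36% of microglia-like cells, whose medians were 6456 and 7116 against 4805.5 and 3691 UMIs. At 1000 UMIs per cell these shares were 18.2% and 15.3% against 0.897% and 1.99%. Oligodendrocyte-like cells held *Ccr2* at 0.538 and 4.67 CPM.

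*Cxcr2*, the receptor gene of the neutrophil, was held mostly by neutrophil-like cells in FMC_new, where it reached 447 (386 to 515) CPM and 60.0% of the 130 cells, with a median depth of 2481 UMIs, held it. These cells held 89.3% of its 215 UMIs. Their 3 clusters were apart, with 890 (744 to 1056) CPM in the largest, led by *Retnlg*, against 154 (99.4 to 227) in cluster 30.1, led by *Chil3*, *Ltf* and *Ngp*, and 300.2 (210.3 to 416) in cluster 30.2. In C-ON only 3 neutrophil-like cells and 8 UMIs of the gene were found, and no level is drawn from them. Border macrophage-like cells held no *Cxcr2* UMI in either library, at floors of 5.29 and 3.46 CPM. Neutrophil-like cells of FMC_new held *Cxcl2*, a gene for a ligand of this receptor, at 349 (295 to 410) CPM and *Cxcl1* at 4.65 CPM from 2 UMIs.

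*Ccr2* and *Cx3cr1* were also read in each cell without regard to its class. In C-ON, 4.6% of cells held *Ccr2* without *Cx3cr1*, 6.40% *Cx3cr1* without *Ccr2* and 1.55% both, and in FMC_new the shares were 8.35%, 15.2% and 2.90%. Cells with *Ccr2* alone were mainly T cell-like (36.0% and 25.3%), type 2 dendritic cell-like (20.4% and 22.6%), type 1 dendritic cell-like (18.0% and 18.1%) and natural killer cell-like (8.87% and 7.12%). Cells with both were mainly type 2 dendritic cell-like (45.3% and 34.5%) and in cluster 4.0 (19.7% and 11.5%), followed by border macrophage-like cells in C-ON (12.4%) and microglia-like cells in FMC_new (10.9%). Cells with *Cx3cr1* alone were microglia-like in 31.7% and 46.0%. In C-ON, 21.2% of them were oligodendrocyte-like, which is 2.22% of that class at a median of 8056.5 UMIs, so a UMI of either gene alone does not place a cell.

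*Ccl2* was higher in cells with *Cx3cr1* alone than in cells with *Ccr2* alone, groups made up of different classes. Its level was 596 (572 to 621) and 529 (517 to 540) CPM in cells with *Cx3cr1* alone, and 82.6 (71.8 to 94.5) and 90.4 (84.4 to 96.8) CPM in cells with *Ccr2* alone. Cells with both receptor genes held 907 (848 to 969) and 549 (525 to 574) CPM, and cells with neither 21.8 and 32.1. *Cxcl2* was highest in cells with both, at 1057 and 525 CPM. *Ccl12* was 552 and 1068 CPM in cells with *Cx3cr1* alone and 9.78 and 30.6 CPM in those with *Ccr2* alone. Cells with both had a median of 6319 UMIs in FMC_new against 5299 with *Ccr2* alone and 5036.5 with *Cx3cr1* alone, and in C-ON the medians were 6243, 4786.5 and 6057. Between macrophage classes the order was another. Border macrophage-like cells, with more *Ccl2* than microglia-like cells, held less *Cx3cr1*, at 324 and 302 against 890 and 837 CPM. They held more *Ccr2*, at 104 and 64.7 against 4.36 and 14.0 CPM.

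**Figure D5:**
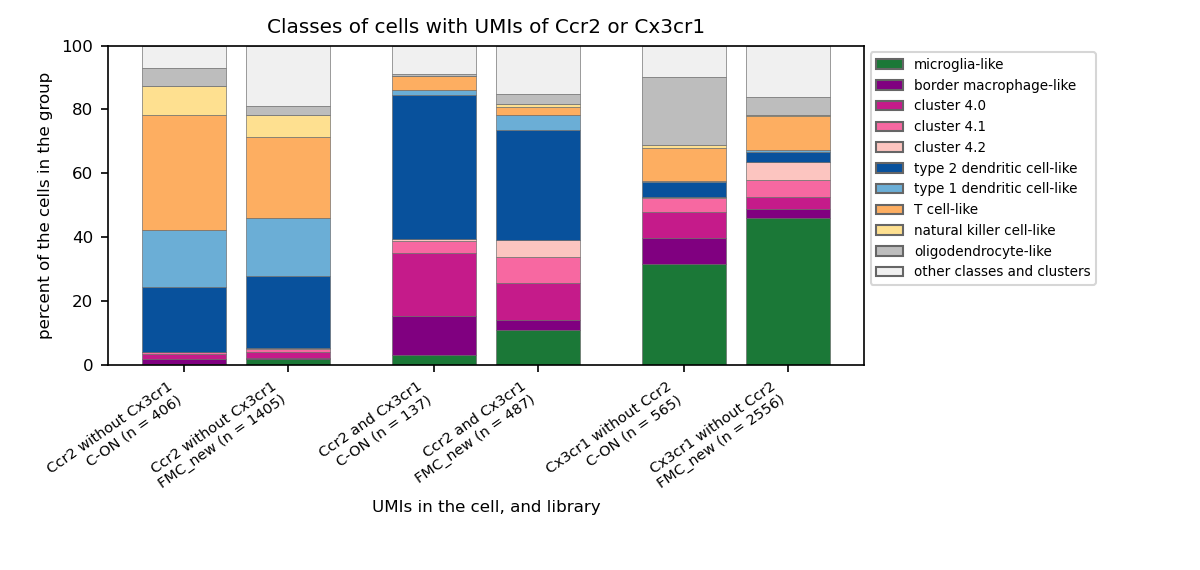
Share of cells (vertical axis, percent) by class or cluster (colours) in the cells with UMIs of *Ccr2* without *Cx3cr1*, of both, and of *Cx3cr1* without *Ccr2*, for each library (horizontal axis, with the number of cells). T and dendritic cell-like cells make up most of the first group and microglia-like cells are the largest single kind of the third.

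Of 16 other genes of these pathways, 6 were tested in border macrophage-like over microglia-like cells. Of these *Pf4*, a platelet factor gene also known in border macrophages, was the 1 called higher, beside 1.71% of all tested genes. It stood at 958 and 641 against 74.8 and 28.3 CPM. *Cx3cr1* ran the other way without being called, at 324 and 302 against 890 and 837 CPM. *Cx3cl1*, the gene of the Cx3cr1 ligand, was the 1 of 7 called in tumor-like over oligodendrocyte-like cells, at 28.5 and 32.0 CPM against 0.0430 and 0.262. Of all tested genes 13.8% were called higher there, so 1 of 7 lies near that share. In cluster 15, *Cx3cl1* (45.9 and 51.2 CPM) and the eotaxin gene *Ccl11* (34.1 and 13.4 CPM) were the 2 of 8 called over oligodendrocyte-like cells. All tested genes were called higher there in 10.8% of cases. Against tumor-like cells, border macrophage-like cells were higher in *Cx3cr1*, *Ccr1*, *Pf4*, *Ccl6* and *Ccl9* and lower in *Cx3cl1*. In that comparison 5.89% of all tested genes were called higher and 13.4% lower. *Ccr3*, the receptor gene for the Ccl24 protein, had at most 18 UMIs in any class, with its highest level, 2.68 CPM, in T cell-like cells of C-ON.

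Over 29 sums of cells from 17 classes in 2 libraries, Pearson's r of log2(CPM + 1) was taken for each member with 15018 genes, as a description of points that share libraries and depth. *Ccl2* ran most closely with *Csf1r* (0.94), the receptor gene for macrophage growth factor, then with *C3ar1* (0.92) and *Ccl7* (0.90). *Ccl12* ran with *Ang* (0.92), the complement gene *C1qc* (0.91) and *Mlxipl* (0.91), and *Ccl8* with *1700003F12Rik* (0.90), *Vcam1* (0.88) and *Tcim* (0.87). *Ccl7* ran with *Ccl2* (0.90), *Stab1* and *Mrc1* (both 0.85), and *Ccl24* with *Igf1* (0.82), *Pla2g2d* and *Gm41290* (both 0.80). *Cxcl2* ran with *Wfdc17* and the prostaglandin synthase gene *Ptgs2* (both 0.89) and *Hcar2* (0.85), and *Cxcl1* with *D830036C21Rik* (0.88), *Cdkn1a* and *Igfbp4* (both 0.76). *Ccr2* ran with *Lgals3* (0.88), *Ttc7* (0.86) and *Fxyd5* (0.82). For *Cxcr2* (*Stfa2l1*, *Mirt2* and *Orm1*, each 1.00) the value rests on the neutrophil-like sum of FMC_new. Some other sums rest on few cells. The type 2 innate lymphoid cell-like sum of C-ON has its 22 *Cxcl1* UMIs from 1 cell. The astrocyte-like sum of FMC_new has its *Ccl8* UMIs from 4 of 212 cells.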

How the data were processed

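The authors made both matrices with Cell Ranger on mm10, version 7.2.0 per the file headers, whereas the study's methods name an earlier version. They deposited raw UMI counts per gene and called barcode, without normalization, for 2 libraries. Whether intronic reads or strand were used in counting is not given in the sources used here. Barcodes with 500 to 5000 genes, 500 to 20000 UMIs and at most 5% mitochondrial UMIs were kept. Seurat 5.3.0 (R 4.3.3) was used for log normalization, variable features without the 9 members and 16 pathway genes, CCA integration and clustering at a resolution of 0.8, with macrophage, monocyte and neutrophil clusters split once more. A marker counted where it was found in at least 20% of a cluster's cells at 2 or more times the mean of the clusters, and a name needed 3 markers. It also needed a lead of 3 over the next class, or at least 2 of its own markers among the 10 leading genes. Clusters under 20 cells, led by cell cycle genes, with leading genes that pointed to another class, or of low depth without a leading marker stayed unnamed. Members, lists and markers were chosen with earlier results of these data known. In all, 7 clusterings and 3 forms of the naming rule were looked at with the members' levels in view. The seventh clustering and the third rule were used, the clustering being the fifth one run with fixed linear algebra settings, because it could be repeated exactly.

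UMIs were summed per library and class of at least 20 cells in Python 3.11.15 (scanpy 1.11.5, pandas 2.3.3, scipy 1.17.1, numpy 2.4.6). A count of 0 was replaced by 3 in folds. Shares were also taken from 25040 cells thinned to 1000 UMIs, with 612 shallower cells left out. Intervals are at 95%. Scrublet called 1 doublet in C-ON and 0 in FMC_new, far below a plausible rate, so it did not work here and no doublet was removed. On simulated counts for 10165 genes of border macrophage-like over microglia-like cells, 106 of 106 genes changed 8-fold and 0 of 94 changed 2-fold were called, with 0 unchanged genes. The changed genes were those with at least 20 expected UMIs in each library, with Poisson error only and no uneven spread over cells. No fold near the limit of 4 was simulated, so this checks how the rule was carried out and gives no error rate for these data. *Ccl24*, *Ccr2* and *Cxcl1*, with 4, 6 and 2 UMIs in microglia-like cells of C-ON, lie below that limit, so recovery at such counts was not tested. Named are the members, the pathway genes, for each member the 3 genes of highest r that reach 10 CPM in at least 1 sum, the extremes of the stress list, and markers or leading genes of clusters. The stress list was *Fos*, *Fosb*, *Jun*, *Junb*, *Egr1*, *Ier2*, *Atf3*, *Dusp1*, *Hspa1a*, *Hspa1b*, *Btg2* and *Zfp36*. The other libraries that the study merged with these were not analysed here, and the result of 1 pathway gene is not reported here.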

Additional observations from a re-analysis of the deposited data

Results flagged for a closer look

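Barcodes outside the cell filter enter no comparison, and all 9 genes had UMIs there above the limit that a count of 0 allows. Over both libraries, *Ccl2* reached 24.29 CPM, *Ccl12* 24.8, *Cxcl2* 15.99, *Ccr2* 12.0, *Ccl7* 8.342, *Ccl8* 5.906, *Cxcl1* 2.578, *Ccl24* 0.7713 and *Cxcr2* 0.2841. For *Ccl2* this was 18.3 CPM in the 2011 removed barcodes of C-ON, against 71.7 in kept cells, and 28.1 CPM in the 4523 of FMC_new, against 133 in kept cells. The barcodes removed held 7.0% and 6.0% of all *Ccl2* UMIs. Which cells these barcodes come from was not tested.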

How the results depend on the processing

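The number of members called in border macrophage-like over microglia-like cells was 6, was 6 with either library left out, and lay within 1.5 times of 6 under every alternative, another random seed among them. All genes called higher were 176 of 10306, then 338 of 13356 without C-ON and 278 of 10348 without FMC_new. For tumor-like over oligodendrocyte-like cells the count was 1, beside 2113 of 15298 genes called higher. It became 4 with a fold limit of 2 (3381 of 15298 genes) and 4 without oligodendrocyte-like cluster 28 (2382 of 15202, added after the data were seen). Without tumor-like cluster 16, also added then, it stayed 1 (2024 of 15077). With 1 library left out it ran from 1 (3219 of 16706) to 5 (2880 of 16061), the 5 coming without FMC_new. For cluster 15, added after the data were seen, the count of 1 (1598 of 14769 genes) became 2 without cluster 28 (1744 of 14610). It ran from 1 (2346 of 15655) to 3 (2098 of 15911) with 1 library left out, the 3 again without FMC_new. Of the single genes, 14 values of genes tested in the main comparison were newly called and 11 were no longer called under some alternative, and none reversed. The 11 were *Ccr2* over microglia-like cells (mean of per-cell CPM, resolutions 0.4 and 1.6, per-cell gate, each library clustered on its own, without cluster 4.8) and over tumor-like cells (per-cell gate, each library clustered on its own, without cluster 4.8), *Cxcl2* over microglia-like cells under the per-cell gate and *Cxcl1* over tumor-like cells without cluster 16. With each library clustered on its own *Ccr2* had too few UMIs to be tested in either comparison. Not counted is *Ccl24*, untested in tumor-like over oligodendrocyte-like cells and called there without FMC_new. The cause was not tested, other than that a fold limit of 2 or a single library asks less. Monocyte-like over microglia-like and neutrophil-like over monocyte-like gave a value in FMC_new alone, with 1 and 2 members higher. All genes called higher there were 389 of 13199 and 385 of 7154. Stromal-like over oligodendrocyte-like gave 1 at resolution 0.4 (1687 of 14838 genes) and 1 under the per-cell gate (1364 of 15428). No model was fitted to these values and no paired test was run, but each comparison was made within each library. Low counts limit *Cxcr2* and *Ccl24*, and C-ON has 3 neutrophil-like cells.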
